A study of Mus musculus with 6 samples.

Results

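Conventional natural killer (NK) cells without the residency genes Cxcr6 and Itga1 made up 269 of the 12596 cells that passed the filters in the CD45+ sort of mouse kidney. Counts are of unique molecular identifiers (UMIs), each standing for 1 captured transcript. Barcodes with fewer than 500 gene UMIs or 200 genes were dropped, as were those with over 15% mitochondrial UMIs or with under 0.3% from Malat1, a nuclear RNA. Of these, the conventional NK cells had at least 2 of the 5 markers Ncr1, Klrb1c, Klre1, Gzma and Eomes, no UMI of Cd3d, Cd3e, Cd3g or Cd79a, and no UMI of Cxcr6 or Itga1. NK-gated cells in which Cxcr6 or Itga1 was detected numbered 102 and are called resident-type NK-gated cells here. The study compared 3 control libraries with 3 libraries from mice with acute kidney injury caused by rhabdomyolysis, the breakdown of skeletal muscle. All mice were C57BL/6J and 8 weeks old, and live CD45+ leukocytes were sorted before droplet 3' RNA sequencing. How rhabdomyolysis was induced, the time after it and whether a library holds 1 mouse or several are not given in the sources used here, so that p-values measure the spread between these libraries.

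NK cells are lymphocytes without a rearranged antigen receptor that kill stressed, infected or transformed cells with granzymes and perforin and secrete interferon gamma and chemokines. Conventional NK cells depend on the transcription factor Eomes, circulate through blood and tissues, and mature from a CD27-positive stage to a stage with Klrg1, Itgam, Cma1 and the egress receptor S1pr5. Innate lymphocytes that stay in tissues, among them group 1 innate lymphoid cells, carry Cxcr6 and Itga1 (CD49a) and little Eomes.

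The libraries held between 10816727 and 22656666 gene UMIs. The conventional NK cells numbered 58, 39 and 37 in the control libraries and 20, 18 and 97 in the rhabdomyolysis libraries 1 to 3, so that rhabdomyolysis library 3 gave most of the injured-kidney cells. Their median depth was 3470, 3272 and 3438 UMIs per cell in the control libraries and 2274, 2137.5 and 3652 in the rhabdomyolysis libraries. Rhabdomyolysis library 2 stood apart: all 5 markers were detected in none of its 18 cells, against 28.2% to 35.1% of cells in the control libraries and 15% and 25.8% in rhabdomyolysis libraries 1 and 3. Gzma was detected in 18 of its cells, Klrb1c in 12, Eomes in 9, Ncr1 in 7 and Klre1 in 6. In the control libraries Ncr1 was detected in at least 92.3% of cells, Klre1 in at least 89.2% and Eomes in at most 40.5%. Barcodes shared between libraries numbered 32 of 12596 cells, and 2 of the 269 conventional NK cells carried one. Free RNA, estimated as an upper limit from phagocyte genes, came to 12.3%, 4.86% and 22.6% of the UMIs of these cells in the control libraries and 5.94%, 12.9% and 4.27% in the rhabdomyolysis libraries.

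The genes of the gate are given as a description, since they chose the cells. Gzma (granzyme A) stood at 11941, 10850 and 14288 CPM (UMIs scaled to a total of 1000000 over the gated cells of a library) in the control libraries and at 18909, 8772 and 15228 in the rhabdomyolysis libraries, with overlapping groups. Eomes also overlapped, with 155, 162 and 144 CPM against 158, 215 and 128 CPM, and so did Klrb1c (NK1.1), with 798, 642 and 842 CPM against 751, 293 and 911 CPM. The activating receptor gene Ncr1 (NKp46) was lower in every rhabdomyolysis library, at 692, 215 and 786 CPM against 1254, 981 and 1012 CPM. The lectin-like receptor gene Klre1 was lower in the same way, at 435, 137 and 606 CPM against 1040, 1093 and 1051 CPM. Cells just inside the threshold, with exactly 2 markers, numbered 32, with a median of 2030.5 UMIs, 4898 CPM of Gzma and 14534 CPM of the chemokine Ccl5. The 14 control cells among them had 1344 CPM of Gzma, detected in 21.4% of them, and the 18 rhabdomyolysis cells 7583 CPM, detected in 83.3%. Cells just outside it, with exactly 1 marker, numbered 84, with a median of 8464.5 UMIs. They had 252 CPM of Gzma and 26318 CPM of the phagocyte and B cell gene Cd74. The 55 control cells among them had 25.8 CPM of Gzma, detected in 21.8%, 243 CPM of Ccl5 and 33010 CPM of Cd74. The 29 rhabdomyolysis cells had 704 CPM of Gzma, detected in 41.4%, 3811 CPM of Ccl5 and 12951 CPM of Cd74.

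The label was checked in the control kidneys against the resident-type NK-gated cells, again as a description. Eomes stood at 155, 162 and 144 CPM in the conventional cells and at 5.83, 0 and 0 CPM in the resident-type cells. Granule genes followed the same order, with Gzma at 530, 338 and 47.8 CPM and the pore-forming protein gene Prf1 at 210, 191 and 239 CPM in resident-type cells, against Prf1 at 871, 1213 and 1234 CPM in conventional cells. The maturation factor gene Zeb2 reached 319, 325 and 522 CPM in conventional cells and 17.5, 0 and 0 CPM in resident-type cells. The receptor genes Klra8 and Klra4 were likewise high in conventional cells. Klra8 stood at 529, 473 and 483 CPM against 58.3, 14.7 and 0 CPM. In the other direction, the chemokine gene Xcl1 stood at 616, 1086 and 411 CPM in conventional cells and at 3398, 2607 and 3538 CPM in resident-type cells, and the interleukin 7 receptor gene Il7r at 18.2, 42.3 and 52.2 CPM against 227, 228 and 255 CPM.

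**Figure D1:**
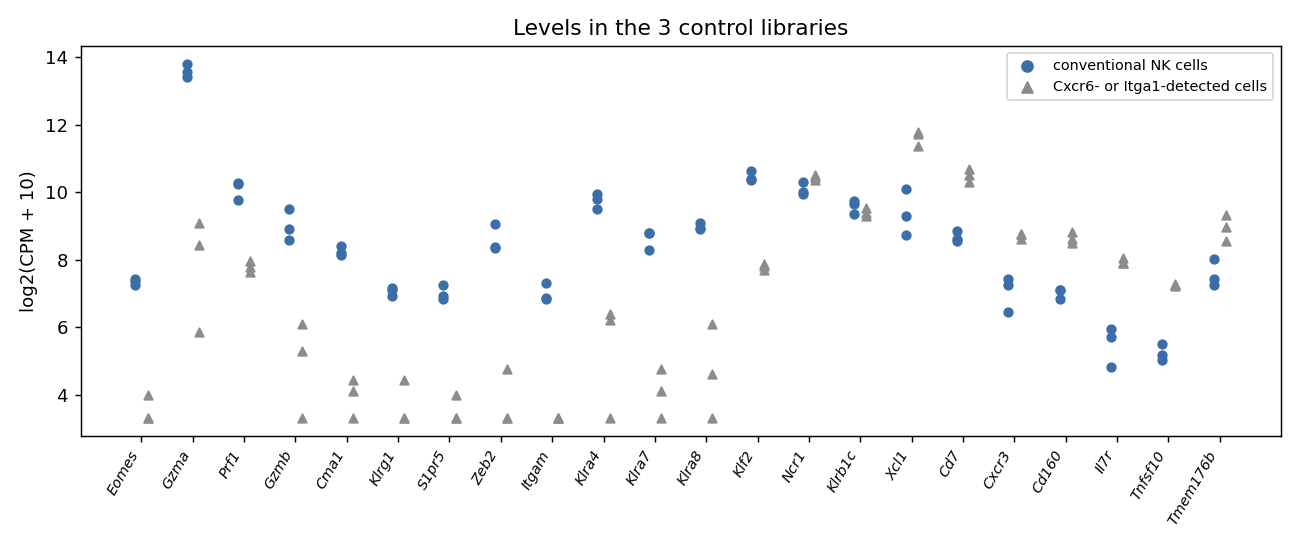
Levels of 22 genes in the 3 control libraries, as log2(CPM + 10), in conventional NK cells (circles) and in NK-gated cells with Cxcr6 or Itga1 detected (triangles); each point is 1 library. Eomes, Gzma, Zeb2, Klra4, Klra8, Klrg1 and S1pr5 lie higher in the conventional cells, and Xcl1, Cd7, Cxcr3 and Il7r lie higher in the resident-type cells.

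Defining markers of other lymphocytes were at 0 only in part, and Trac, Cd79b, Gata3 and Rora were not among those at 0 in all sums. The T cell genes Cd4, Cd8a, Cd8b1, Cd5, Cd6, Themis and Trat1 had no UMI in any of the 6 sums, and neither had any of 7 genes of group 3 innate lymphoid cells. Of 11 markers of group 2 innate lymphoid cells, Il1rl1, Areg, Il5, Il13 and Il17rb were at 0 in all sums. The 11 summed to between 183 and 219 CPM in the control and between 58.6 and 119 CPM in the rhabdomyolysis libraries, and the 1 of them with enough counts to be tested, Klrg1, is also an NK gene. All 13 T cell markers outside the gate, which include genes that NK cells share, summed to between 593 and 757 CPM over the 6 libraries. The deposited CD3 antibody tag had a median of 0 to 2 counts per conventional NK cell in every library, against 4 to 12 in T cells, which were defined by at least 2 UMIs of the Cd3 genes, fewer than 2 NK markers and no Cd79a. The B cell markers summed to between 146 and 240 CPM in the control and at most 44.2 CPM in the rhabdomyolysis libraries. Hemoglobin genes were at 0, and kidney tubule genes summed to 3464 CPM in control library 2 and at most 39.1 CPM elsewhere. The 18 phagocyte markers summed to between 7647 and 22634 CPM in the control libraries and between 4944 and 9612 CPM in the rhabdomyolysis libraries, and the 12 neutrophil markers to between 36.5 and 56.4 CPM and between 664 and 1090 CPM. No doublet caller was run; the cells held at most 10744 UMIs.

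The first comparison asked how much of the NK compartment the conventional cells formed. They made up 56.9%, 51.3% and 68.5% of NK-gated cells in the control libraries, a mean of 58.9% ± 8.78 (SD, n = 3), and 95.2%, 100% and 97.0% in the rhabdomyolysis libraries, a mean of 97.4% ± 2.41 (SD, n = 3). Every rhabdomyolysis library lay above every control library. The difference of 38.5 percentage points had a 2-sided exact permutation p = 0.1, the smallest that 3 against 3 libraries allow. Exact 95% binomial intervals, which cover counting error only, ran from 39.6% at the lowest bound to 80.5% at the highest in the control libraries and from 76.2% to 100% in the rhabdomyolysis libraries. Because a shallow cell can lose its only Cxcr6 or Itga1 UMI, each cell was also thinned to 1000 UMIs, which left out 417 cells, 1 of them a conventional NK cell. The shares were then 80.2%, 72.7% and 88.6% against 94.1%, 100% and 98.9%, a difference of 17.1 percentage points with exact permutation p = 0.1 and still no overlap.

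The resident-type cells were fewer in every rhabdomyolysis library than in any control library. They formed 1.27%, 1.31% and 0.757% of all filtered cells in the control libraries and 0.0987%, 0% and 0.199% in the rhabdomyolysis libraries (exact permutation p = 0.1, 2-sided), with 44, 37 and 17 cells against 1, 0 and 3. The 0 of 1532 cells in rhabdomyolysis library 2 allows a share of up to 0.241% (exact 95% bound).

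As a share of all filtered cells, the conventional NK cells did not separate the groups. The shares were 1.67%, 1.38% and 1.65% in the control libraries and 1.97%, 1.17% and 6.44% in the rhabdomyolysis libraries. The means were 1.57% ± 0.162 and 3.20% ± 2.84 (SD, n = 3 each), with exact permutation p = 0.5 (2-sided). Rhabdomyolysis library 3 decided the difference of 1.63 percentage points: without it the difference was 0.0088. Without the Malat1 minimum the difference was -0.067 percentage points, so this share also turned on which barcodes of other cells were counted. Per 100 T cells, a denominator chosen after the data were seen, there were 8.07, 6.85 and 6.11 conventional NK cells in the control libraries and 23, 20.5 and 72.9 in the rhabdomyolysis libraries, without overlap (exact permutation p = 0.1, 2-sided). T cells themselves numbered 719, 569 and 606 in the control libraries and 87, 88 and 133 in the rhabdomyolysis libraries. Without rhabdomyolysis library 3 the difference of 31.8 per 100 T cells was 14.7.

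**Figure D2:**
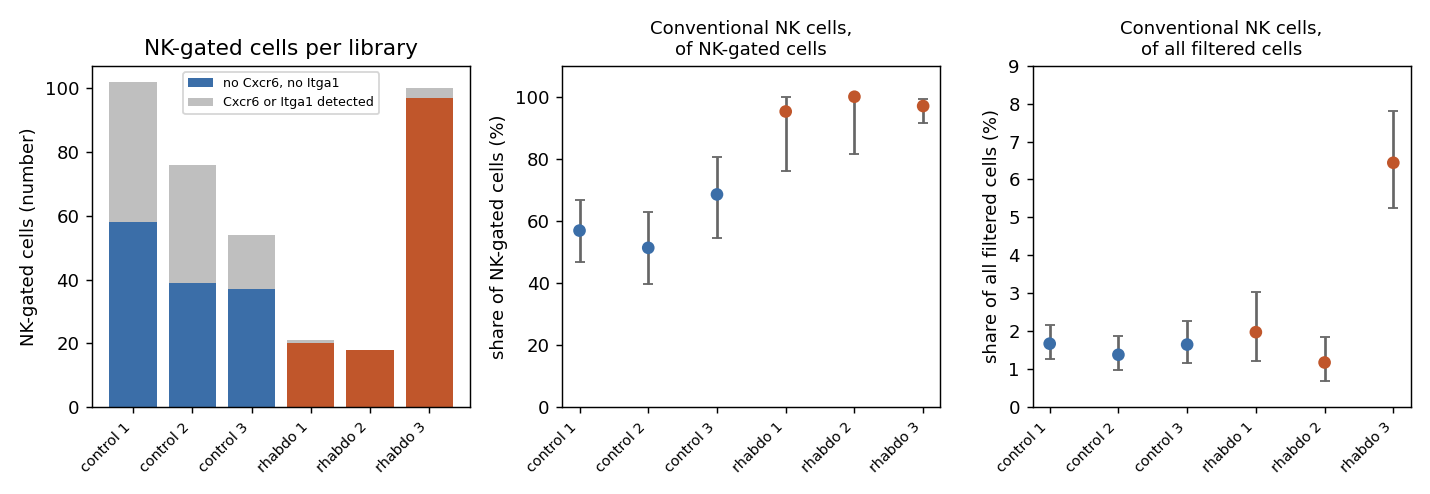
Left, number of NK-gated cells per library, split into conventional NK cells (blue in control, orange in rhabdomyolysis libraries) and cells with Cxcr6 or Itga1 detected (grey); middle and right, conventional NK cells as a percentage of NK-gated cells and of all filtered cells, with exact 95% binomial intervals. Conventional cells exceeded 95% of NK-gated cells in all 3 rhabdomyolysis libraries, and among all filtered cells rhabdomyolysis libraries 1 and 3 lie above, and library 2 below, every control library.

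The second comparison asked which genes differed within the conventional NK cells. UMIs were summed over the cells of each library, and 2167 genes with enough counts were tested with edgeR's quasi-likelihood test, with p-values adjusted by Benjamini-Hochberg over all of them. At an adjusted p under 0.05, 78 genes (3.6%) were called, 49 of them higher (2.26%) and 29 lower (1.34%) in rhabdomyolysis. The called genes include the gate genes Klre1, mt-Nd4 and mt-Cytb, which are not counted as findings, and 14 further genes for which free RNA could supply at least 20% of the counts. With library totals in place of TMM scaling, the median log2 change of all genes moved from -0.02 to -0.15 and the calls split into 33 higher and 41 lower. The number of calls was sensitive to single libraries. It was 21, 31 and 28 without control libraries 1, 2 and 3, and 31, 164 and 33 without rhabdomyolysis libraries 1, 2 and 3. Called in every one of those 6 fits were 9 genes: Cma1, Bcl2, Dusp2, Rbm3, Bhlhe40, Rpl8, Rps20, S100a8 and S100a9. Rpl8 and Rps20 were not called when the low-count filter was left out (edgeR adjusted p = 0.205 and 0.161). The 61 called genes followed through these fits kept their direction in all of them. The CPM of the 3 libraries of one group lay wholly above those of the other for 502 genes (23.2%).

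Part of the genes of mature NK cells fell. Of 17 listed genes, 15 were tested, of which 4 fell and 1, Gzmb, rose, with a median log2 change of -0.52 beside -0.02 over all genes tested. The largest fall among them was in Klrg1, an inhibitory receptor that binds cadherins and marks terminally mature NK cells. Klrg1 stood at 128, 134 and 111 CPM in the control libraries and at 39.5, 0 and 13 CPM in the rhabdomyolysis libraries, a log2 change of -2.94 ± 0.46 (SE) with edgeR adjusted p = 0.0045. The groups did not overlap, and the change ranged from -3.26 to -2.53 with each library left out in turn, losing its call only without rhabdomyolysis library 3. Klrg1 was detected in 27.6%, 25.6% and 29.7% of control cells and in 10.0%, 0% and 4.12% of rhabdomyolysis cells, where the 0 of 18 cells allows up to 16.7%. After thinning to 1000 UMIs the shares were 15.8%, 7.69% and 10.8% against 0%, 0% and 1.03%; the 0 of 20 cells and 0 of 18 cells allow up to 15% and 16.7%. B cells, which should lack the gene, had it in 0 of 1173 thinned cells, which allows up to 0.256%.

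Cma1, the gene of mast cell protease 5 (a chymase), which mature NK cells also transcribe, was at 274, 282 and 327 CPM in the control libraries. It was at 19.8, 0 and 80.7 CPM in the rhabdomyolysis libraries, a log2 change of -2.15 ± 0.38 (edgeR adjusted p = 0.0076), and kept its call whichever library was left out. It was detected in 44.8%, 46.2% and 56.8% of control cells against 5%, 0% and 21.6% of rhabdomyolysis cells. S1pr5, the sphingosine 1-phosphate receptor by which mature NK cells leave tissues, was at 105, 113 and 144 CPM against 0, 0 and 39.0 CPM. Its log2 change was -1.86 ± 0.45 (edgeR adjusted p = 0.035), and it kept its call only without rhabdomyolysis library 2 or 3, within a range from -6.87 to -1.67 over the 6 fits. Ly6c2, a surface antigen gene of mature NK cells and of monocytes, was at 401, 296 and 327 CPM against 98.8, 39.1 and 167 CPM, a log2 change of -1.27 ± 0.31 (edgeR adjusted p = 0.033), also called only without rhabdomyolysis library 2 or 3, within a range from -2.24 to -1.05. DESeq2 called 2 falls and 1 rise among the 15 tested genes (median -0.53); Ly6c2 was not called by it (adjusted p = 0.073), and it gave no adjusted p for S1pr5. In Klrg1, Cma1, S1pr5 and Ly6c2 every rhabdomyolysis library lay below every control library.

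Apart from Gzmb, which rose, other genes of maturity did not pass the test. Zeb2 stood at 319, 325 and 522 CPM against 119, 254 and 182 CPM, without overlap but with edgeR adjusted p = 0.084. Itgam (CD11b) had a log2 change of -0.17 ± 0.44 and overlapping groups, and Ccl5 one of 0.23 ± 0.17. The fractalkine receptor gene Cx3cr1 was below the count filter, at 63.8, 70.5 and 124 CPM against 0, 0 and 13 CPM. Among 8 tested genes of immature NK cells (median log2 -0.38), 1 fell and none rose: Cd7, a lymphocyte surface receptor gene, at 456, 367 and 385 CPM against 257, 117 and 72.9 CPM (log2 -1.77 ± 0.35, edgeR adjusted p = 0.012). Its change ranged from -2.19 to -1.05 with each library left out, and the call was lost without control library 1 or 3 or rhabdomyolysis library 3 (-1.05, edgeR adjusted p = 0.172). In the resident-type cells of the control libraries, Klrg1, Cma1 and S1pr5 averaged 3.88, 6.33 and 1.94 CPM, whereas Cd7 averaged 1446 CPM. The genes that fell therefore included some that were near 0 in resident-type cells and some that were high there.

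Egress and homing genes also fell in part. Of 17 listed, 13 were tested, of which 4 fell and none rose (median log2 -0.50). Besides S1pr5 these were Cxcr3, the receptor for interferon-induced chemokines, and the integrin genes Itgal (LFA-1 alpha chain) and Itgb1. Cxcr3 stood at 164, 141 and 78.4 CPM against 19.8, 19.5 and 36.4 CPM, a log2 change of -1.89 ± 0.41 (edgeR adjusted p = 0.019), and lost its call without control library 1 or 2 or rhabdomyolysis library 1 or 3, over a range from -2.61 to -1.64. Its values in rhabdomyolysis libraries 1 and 2 lie near the floor, since the sums of these libraries held only 50611 and 51184 UMIs. Itgal changed by -1.05 ± 0.26 and Itgb1 by -0.82 ± 0.21 on the log2 scale, each called in 1 of the 6 fits with a library left out and not called without the low-count filter. The chemokine receptor gene Ccr2 was at 420, 219 and 346 CPM against 138, 19.5 and 148 CPM and missed the threshold (edgeR adjusted p = 0.051). Klf2, the gene of a transcription factor for circulation, had overlapping groups and a log2 change of 0.46 ± 0.19. With DESeq2 none of these 13 genes was called (median -0.54).

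Residency genes other than the 2 of the gate gave no common direction. Of 5 tested (median log2 0.08, and -0.05 with library totals), 2 fell, Tmem176a and Tmem176b, and for both free RNA could supply much of the signal (81.8% and 58.2% of the counts in the control group). Cd69, a gene of early activation and tissue retention, stood at 151, 176 and 98.0 CPM against 731, 78.1 and 177 CPM, where rhabdomyolysis library 1 alone was high. Itgae and Zfp683 reached at most 19.5 and 7.05 CPM in any library.

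Few receptor genes passed the test. Over all 2167 genes tested, 1125 had a log2 change below 0 and 353 an unadjusted p under 0.05. Among 14 tested activating receptor genes outside the gate, 1 fell and none rose (median log2 -0.47); 11 of the 14 had a log2 change below 0, and 4 an unadjusted p under 0.05. It was Cd2, an adhesion and costimulatory receptor gene, at 629, 557 and 457 CPM against 178, 39.1 and 247 CPM (log2 -1.42 ± 0.32, edgeR adjusted p = 0.022). Its change ranged from -2.27 to -1.14 with each library left out, and the call held only without rhabdomyolysis library 2 or 3. The receptor genes Klra8 and Klra4 were lower in every rhabdomyolysis library but not called, with log2 changes of -0.64 ± 0.23 and -0.49 ± 0.20. Klrk1, the gene of NKG2D, had a log2 change of -0.02 ± 0.21. Klra genes are near-identical paralogs, and how reads were divided among them is not known from the files. Among 9 tested inhibitory receptor genes (median log2 -0.26) Klrg1 fell and none rose. Of 13 tested genes of adaptors and proximal signalling (median log2 -0.09), 1 fell and 1 rose. The adaptor gene Tyrobp (DAP12), which carries the signal of activating Klra receptors, stood at 4236, 3421 and 3892 CPM against 2193, 2032 and 2230 CPM, a log2 change of -0.75 ± 0.14 (edgeR adjusted p = 0.010); free RNA could supply 10.9% of its control counts, and without the low-count filter it was not called (edgeR adjusted p = 0.095). The adaptor gene Sh2d2a rose from 151, 162 and 202 CPM to 356, 547 and 276 CPM (log2 1.15 ± 0.28). None of the 12 tested NK transcription factor genes was called by edgeR with TMM scaling or by DESeq2, 1 fell with library totals, and 4 had an unadjusted p under 0.05 with TMM scaling. Tbx21 (T-bet) was at 187, 141 and 137 CPM against 39.5, 97.7 and 98.9 CPM with edgeR adjusted p = 0.26.

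Some effector genes rose and others did not pass the test. Of 12 tested granule and cytotoxic genes, 3 rose and none fell, although the median log2 change was -0.18. Gzmb (granzyme B) was at 470, 374 and 712 CPM in the control libraries and at 1186, 645 and 1439 CPM in the rhabdomyolysis libraries. Its groups overlapped, since rhabdomyolysis library 2 lay below control library 3, and the log2 change was 1.21 ± 0.29 (edgeR adjusted p = 0.030), called in 2 of the 6 fits with a library left out. Gzmb was detected in 56.9%, 53.8% and 70.3% of control cells against 70.0%, 72.2% and 84.5% of rhabdomyolysis cells. The granzyme B inhibitor gene Serpinb9 rose from 160, 247 and 242 CPM to 375, 567 and 539 CPM (log2 1.34 ± 0.25, edgeR adjusted p = 0.0092). Srgn (serglycin, the proteoglycan core of granules) rose by 1.20 ± 0.30 on the log2 scale, with its highest value, 2442 CPM, in rhabdomyolysis library 2. Without that library its log2 change was 0.67, and the call held only without rhabdomyolysis library 2 or 3. Prf1 had a log2 change of -0.11 ± 0.23 and overlapping groups.

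Among 8 tested genes of secreted factors, the chemokine genes Ccl3 and Ccl4, which attract other leukocytes, rose and none fell; the median log2 change was 0.14, and -0.00 with library totals and -0.05 with DESeq2. Ccl3 stood at 579, 310 and 379 CPM against 1838, 586 and 1910 CPM, a log2 change of 1.88 ± 0.34 (edgeR adjusted p = 0.0085). Ccl4 stood at 720, 974 and 1006 CPM against 3853, 684 and 5631 CPM, a log2 change of 2.05 ± 0.45 (edgeR adjusted p = 0.019), with overlapping groups because rhabdomyolysis library 2 lay below every control library. Without control library 2 or rhabdomyolysis library 1 or 3 the call of Ccl3 was lost (range 1.56 to 2.23), and that of Ccl4 was kept only without rhabdomyolysis library 2 (range 1.41 to 2.53). Ifng (interferon gamma) overlapped, at 137, 120 and 111 CPM against 79.0, 39.1 and 169 CPM (log2 0.21 ± 0.34). With DESeq2, 1 of these 8 genes was called.

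**Figure D3:**
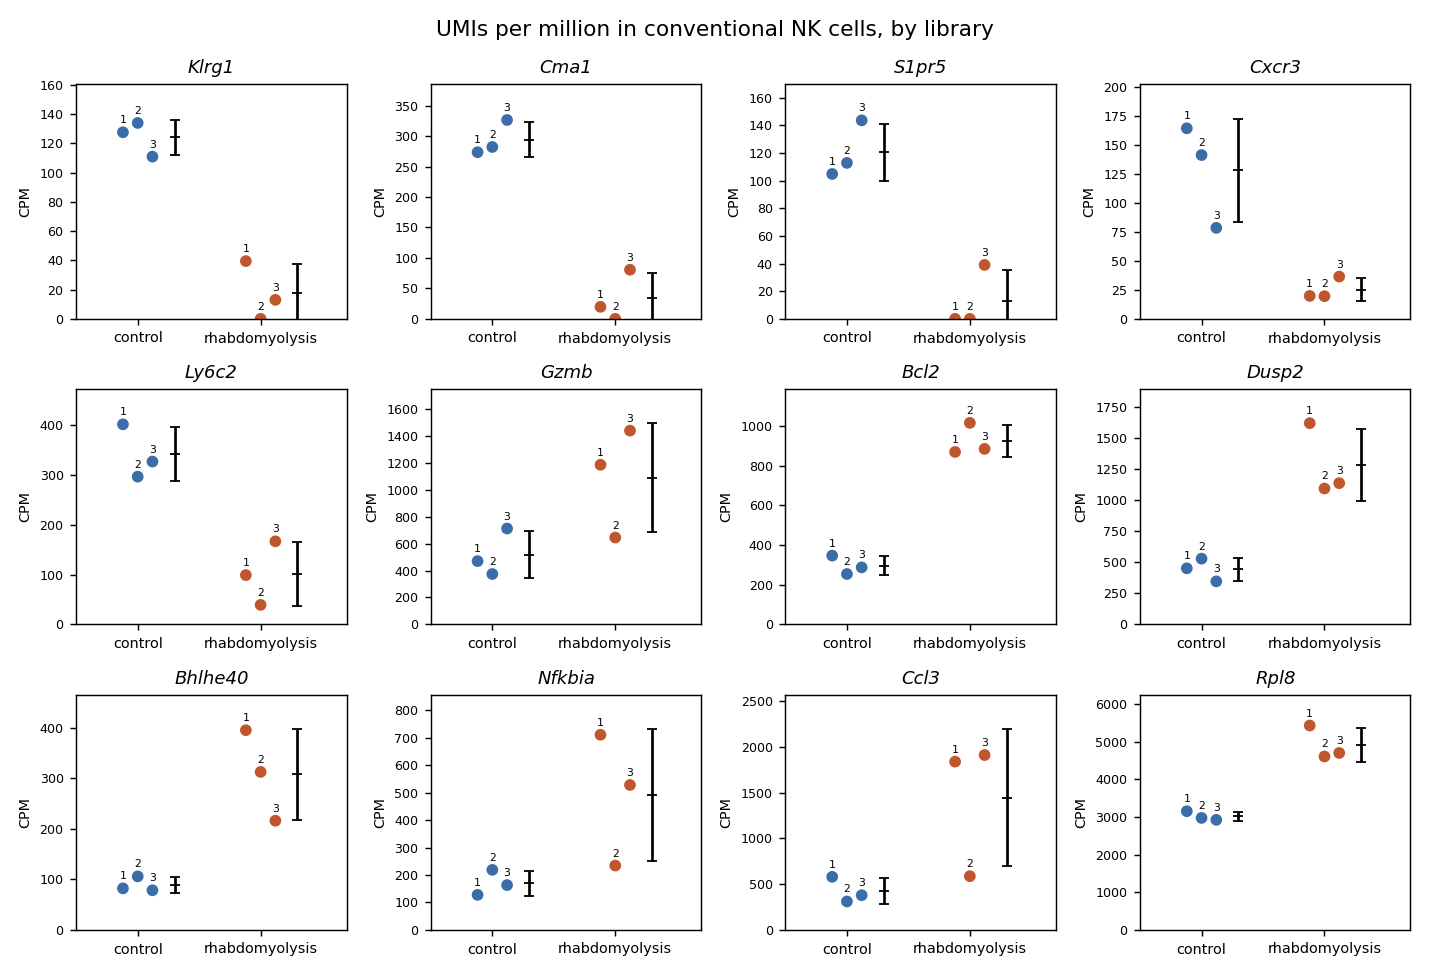
CPM of 12 genes in conventional NK cells, 1 point per library with its replicate number; the bar to the right of each group is the mean ± SD over 3 libraries, cut off at 0. Klrg1, Cma1, S1pr5, Cxcr3 and Ly6c2 lie lower and Bcl2, Dusp2, Bhlhe40, Nfkbia, Ccl3 and Rpl8 higher in all 3 rhabdomyolysis libraries, whereas for Gzmb rhabdomyolysis library 2 falls among the control libraries.

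Survival genes of opposite roles rose together. Of 9 tested, 2 rose and none fell (median log2 0.20). Bcl2, the gene of an inhibitor of mitochondrial apoptosis, stood at 346, 254 and 287 CPM in the control libraries and at 869, 1016 and 885 CPM in the rhabdomyolysis libraries. This log2 change of 1.71 ± 0.21 had an edgeR adjusted p = 0.00061, the groups were far apart, and the change ranged from 1.59 to 1.85 with each library left out. Bcl2l11, the gene of the pro-apoptotic protein Bim that Bcl2 binds, stood at 41.0, 14.1 and 13.1 CPM against 79.0, 176 and 91.1 CPM, a log2 change of 2.07 ± 0.47 (edgeR adjusted p = 0.024). Bcl2l11 was called in 2 of the 6 fits with a library left out. Mcl1, another anti-apoptotic gene, changed by 0.20 ± 0.24. Gimap5, a GTPase gene needed for lymphocyte survival, was at 278, 190 and 268 CPM against 632, 1250 and 479 CPM (log2 1.66 ± 0.32, edgeR adjusted p = 0.012), and lost its call only without control library 2.

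Of 21 tested immediate early genes, 4 rose and none fell, with a median log2 change of 0.44. Dusp2, a phosphatase gene that shuts off MAP kinases in activated lymphocytes, stood at 451, 529 and 346 CPM against 1620, 1094 and 1137 CPM. Its log2 change of 1.61 ± 0.22 (edgeR adjusted p = 0.0015) kept its call in all 6 fits with a library left out. Dusp5, a phosphatase gene of the same family, rose by 1.54 ± 0.31 and Ier2 by 1.10 ± 0.24. Nfkbia (IkB alpha, the inhibitor of NF-kB that NF-kB itself induces) stood at 128, 219 and 163 CPM against 711, 234 and 528 CPM, a log2 change of 1.68 ± 0.31 (edgeR adjusted p = 0.0092). Rhabdomyolysis library 2 lay just above control library 2 for Nfkbia, and the call held only without control library 2 or rhabdomyolysis library 2. The AP-1 genes Fos and Jun, by contrast, had log2 changes of -0.29 ± 0.21 and -0.38 ± 0.23 with overlapping groups, and Junb one of 0.79 ± 0.28 that was not called.

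The promoters of 4 of the genes that rose are shown because they hold the letters of a motif of NF-kB or AP-1, factors that act at many immediate early genes. Each runs 5′ to 3′ on the gene's strand from 250 bases before to 50 after the start (RefSeq, GRCm38.p6), and the capitals mark the match.
Nfkbia promoter (chr12:55492598-55492897, minus strand; NF-kB letters beginning at -29 from the start): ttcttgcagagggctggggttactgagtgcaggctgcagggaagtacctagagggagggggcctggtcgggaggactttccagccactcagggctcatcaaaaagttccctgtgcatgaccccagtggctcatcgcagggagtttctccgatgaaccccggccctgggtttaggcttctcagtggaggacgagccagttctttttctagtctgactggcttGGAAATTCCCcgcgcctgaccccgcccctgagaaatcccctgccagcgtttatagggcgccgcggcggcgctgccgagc
Bcl2l11 promoter (chr2:128125788-128126087, plus strand; NF-kB letters at -114): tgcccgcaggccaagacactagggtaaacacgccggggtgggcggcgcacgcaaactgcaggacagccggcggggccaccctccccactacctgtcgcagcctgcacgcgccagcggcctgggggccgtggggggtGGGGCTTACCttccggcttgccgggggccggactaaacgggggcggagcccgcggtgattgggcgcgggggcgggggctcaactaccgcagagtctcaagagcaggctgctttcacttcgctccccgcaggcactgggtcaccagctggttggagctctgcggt
Dusp5 promoter (chr19:53528895-53529194, plus strand; NF-kB letters at -90): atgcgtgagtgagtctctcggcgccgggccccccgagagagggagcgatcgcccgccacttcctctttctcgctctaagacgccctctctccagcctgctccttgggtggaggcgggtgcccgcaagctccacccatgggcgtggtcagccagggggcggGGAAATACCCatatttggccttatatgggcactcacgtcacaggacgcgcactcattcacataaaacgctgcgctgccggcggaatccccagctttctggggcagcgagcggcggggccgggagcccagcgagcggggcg
Gzmb promoter (chr14:56262285-56262584, minus strand; AP-1 letters at -58): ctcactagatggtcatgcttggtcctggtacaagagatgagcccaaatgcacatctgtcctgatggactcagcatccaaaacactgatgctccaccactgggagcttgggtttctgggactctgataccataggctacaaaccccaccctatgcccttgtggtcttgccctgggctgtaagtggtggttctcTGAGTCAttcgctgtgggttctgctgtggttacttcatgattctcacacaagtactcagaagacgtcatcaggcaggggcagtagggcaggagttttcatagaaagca
The NF-kB motif was searched as GGGNNTTNCC on both strands, and it occurred in 3 of the 20 looked-up genes with an entry, Nfkbia, Bcl2l11 and Dusp5, beside 5.48% of all genes in the RefSeq table. The AP-1 motif TGANTCA occurred in Gzmb and Ifi203 and in 8.97% of all genes, and the T-box motif GGTGTGA, the kind bound by Eomes and T-bet, in none of the 20 and in 4.6% of all genes. None of the 4 printed promoters held more than 1 of the 3 motifs. A match describes these letters only, and binding was not measured here.

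Transcription factor and RNA-binding genes outside the lists were among the largest rises. Bhlhe40, the gene of a repressor that supports cytokine production in lymphocytes, rose from 82.1, 106 and 78.4 CPM to 395, 313 and 216 CPM (log2 1.72 ± 0.30, edgeR adjusted p = 0.0074). Rbm3, a cold-inducible RNA-binding protein gene, rose from 565, 360 and 398 CPM to 1541, 1368 and 848 CPM (log2 1.53 ± 0.25, edgeR adjusted p = 0.0064). Both kept their call whichever library was left out. A pair of Max-binding repressor genes moved in opposite directions: Mxd1 rose from 36.5, 42.3 and 71.8 CPM to 138, 117 and 122 CPM (log2 1.43 ± 0.34), and Mxd4 fell from 151, 176 and 170 CPM to 79.0, 39.1 and 36.4 CPM (log2 -1.85 ± 0.34). The secreted factor gene Metrnl rose by 1.39 ± 0.28 and Alkbh1, a nucleic acid demethylase gene, by 1.60 ± 0.39. Borcs7, a subunit gene of the complex that positions lysosomes, fell from 146, 183 and 170 CPM to 19.8, 78.1 and 54.7 CPM (log2 -1.52 ± 0.33), and Tmem59 fell by 1.17 on the log2 scale (SE 0.31). With a library left out in turn, Alkbh1, Borcs7 and Tmem59 kept their call only without rhabdomyolysis library 2. Mxd1 kept it only without control library 3 or rhabdomyolysis library 2, and Metrnl only without control library 2 or rhabdomyolysis library 1 or 2. Mxd4 lost its call only without rhabdomyolysis library 3. DESeq2 called none of Mxd1, Mxd4, Metrnl, Alkbh1 and Borcs7 (adjusted p = 0.272, 0.0715, 0.11, 0.159 and 0.149).

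Ribosomal protein genes lay on one side of 0. All 71 listed were tested; 18 rose, none fell, and all 71 had a log2 change above 0, with a median of 0.41 and a range from 0.04 to 0.83. Over all 2167 genes tested, 1042 had a log2 change above 0. Rpl8 stood at 3155, 2977 and 2926 CPM against 5434, 4611 and 4705 CPM, a log2 change of 0.79 ± 0.13 (edgeR adjusted p = 0.0045). The median remained above 0 with library totals (0.29, 10 calls) and with DESeq2 (0.42, 5 calls). Without the low-count filter the median was 0.34 and none of the 71 was called, Rpl8 having a log2 change of 0.71 with edgeR adjusted p = 0.205. In T cells of the same libraries Rpl8 changed by 0.84 ± 0.13. By edgeR none of the 43 tested oxidative phosphorylation genes was called (median -0.0017), none of 10 glycolysis genes (median 0.28), and none of 33 cytoskeleton and migration genes (median -0.12). An unadjusted p under 0.05 was found for 1, 0 and 8 of them, beside 353 of all 2167 genes tested. DESeq2 called no gene of these 3 lists.

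Few signalling and antigen presentation genes passed the test. Of 13 tested cytokine receptor and signalling genes (median log2 -0.17) none fell and 1, the kinase gene Pim1, a target of STAT5, rose, from 205, 275 and 183 CPM to 534, 391 and 429 CPM (log2 1.11 ± 0.23). The interleukin 2 and 15 receptor chain gene Il2rb overlapped between groups (log2 0.22 ± 0.22). Among 10 tested interferon response genes 1 fell, Ifi203 (log2 -1.20 ± 0.27), and among 18 genes of MHC class I antigen processing 1 fell, the immunoproteasome subunit gene Psmb9 (log2 -1.09 ± 0.26); none rose in either list, and both medians were -0.29. Log2 changes below 0 were found for 8 of the 10 interferon response genes and 15 of the 18 MHC class I genes. Over all genes tested, 1125 of 2167 had one. Neither list had a call with DESeq2. With library totals 2 MHC class I genes fell, and without the low-count filter none was called. Of 6 tested glucocorticoid-responsive genes (median log2 0.53) 1 rose, the transcription factor gene Cebpb, and free RNA could supply 38.0% of its counts in the rhabdomyolysis group. Fkbp5 and Klf9, also induced by glucocorticoids, were under the count filter, with Fkbp5 at 9.12, 42.3 and 32.7 CPM against 79.0, 97.7 and 62.5 CPM and Klf9 at 9.12, 42.3 and 0 CPM against 79.0, 156 and 46.8 CPM. None of the 14 tested heat shock genes was called by edgeR or DESeq2 (median log2 -0.16). An unadjusted p under 0.05 was found for 3 of them, beside 353 of all 2167 genes tested. The inducible chaperone gene Hspa1a, under the filter, was at 54.7, 346 and 202 CPM in the control libraries and at 0 in all 3 rhabdomyolysis libraries. Of 5 tested cell cycle genes (median log2 0.43) 1 rose, the tubulin gene Tuba1b, with overlapping groups.

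**Figure D4:**
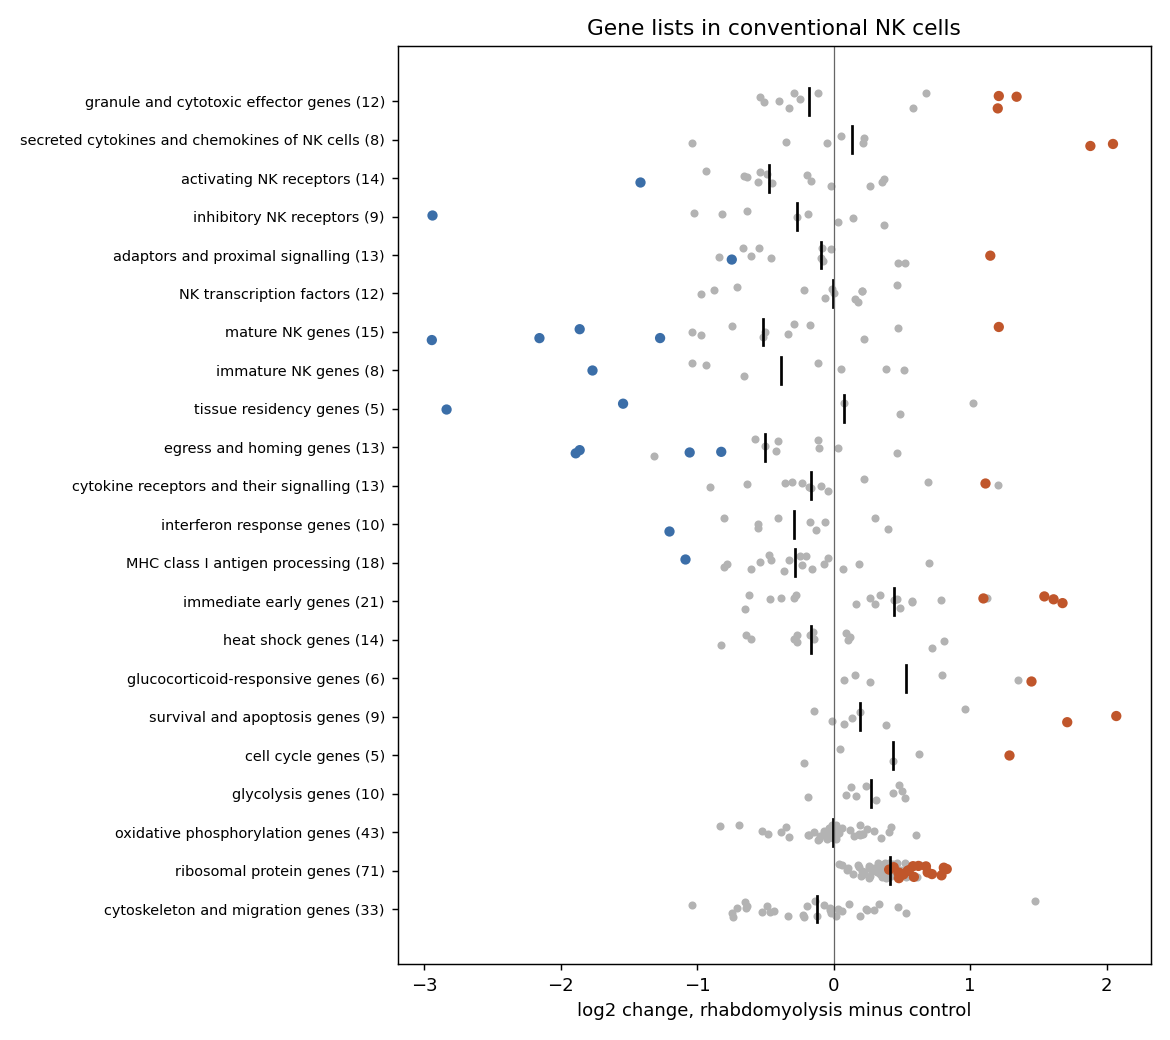
Log2 change between rhabdomyolysis and control of each tested gene outside the gate, by gene list, with the number tested in brackets; orange and blue points passed edgeR's adjusted p under 0.05 as higher or lower, grey points did not, and the black bar is the list's median. The mature NK and egress lists hold 4 called falls each, and the mature NK list also 1 called rise, Gzmb. The immediate early list holds 4 called rises and the ribosomal protein list 18.

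Genes of other cells also moved in these sums. The neutrophil genes S100a8 and S100a9 had no UMI in the 3 control sums and 198, 274 and 648 CPM and 435, 176 and 291 CPM in the rhabdomyolysis sums, at least 96.3-fold and 50.4-fold higher over the floor of 3 counts in the pooled control cells. Without rhabdomyolysis library 3 these bounds were 40.4-fold and 52.2-fold. Free RNA could supply 21.1% and 36.9% of these counts. Of 12 tested phagocyte markers 4 fell and none rose, among them the MHC class II gene H2-Aa at 716, 480 and 1802 CPM against 277, 137 and 20.8 CPM, and free RNA could supply 93.3% of the H2-Aa counts in the control group. The B cell gene Ighm fell from 141, 219 and 170 CPM to 39.5, 0 and 36.4 CPM. In the 36 genes called when cells with any C1qa, C1qb, C1qc or Lyz2 UMI were left out, 33 had been called in the same direction in all cells. Of the 61 genes followed, 28 stayed called in that setting and 21 no longer passed. The rest, among them Cxcr3, were not tested in it. Those that no longer passed included Ly6c2, Ier2, Pim1, Itgal, Psmb9 and Mxd1 (edgeR adjusted p = 0.0765, 0.0567, 0.0796, 0.0796, 0.179 and 0.162). The part of other cells in the remaining results was not tested.

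The third comparison asked whether these changes differed from those of T cells in the same libraries. In T cells, 910 of 8534 tested genes (10.7%) were called, 549 higher (6.43%) and 361 lower (4.23%). Of the 24 genes named by the fixed rule for size and separation, 22 were tested in T cells, 21 had the same sign there and 17 were called with the same sign. The share with the same sign over all genes tested in both cell types is not given here, so these counts have no background beside them. Cxcr3 changed by -1.99 ± 0.16 in T cells and -1.89 ± 0.41 in NK cells, Klrg1 by -2.95 ± 0.78 and -2.94 ± 0.46, and Mxd4 by -1.79 ± 0.20 and -1.85 ± 0.34. Among the rises, Bcl2 changed by 2.13 ± 0.19 in T cells and 1.71 ± 0.21 in NK cells, and Rbm3 by 1.57 ± 0.15 and 1.53 ± 0.25. The difference between NK and T cells in these 5 genes was not called; for Bcl2 it was -0.44 ± 0.23 on the log2 scale (edgeR adjusted p = 0.61). Borcs7 was the 1 gene with the opposite sign, with 0.66 ± 0.31 in T cells.

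**Figure D5:**
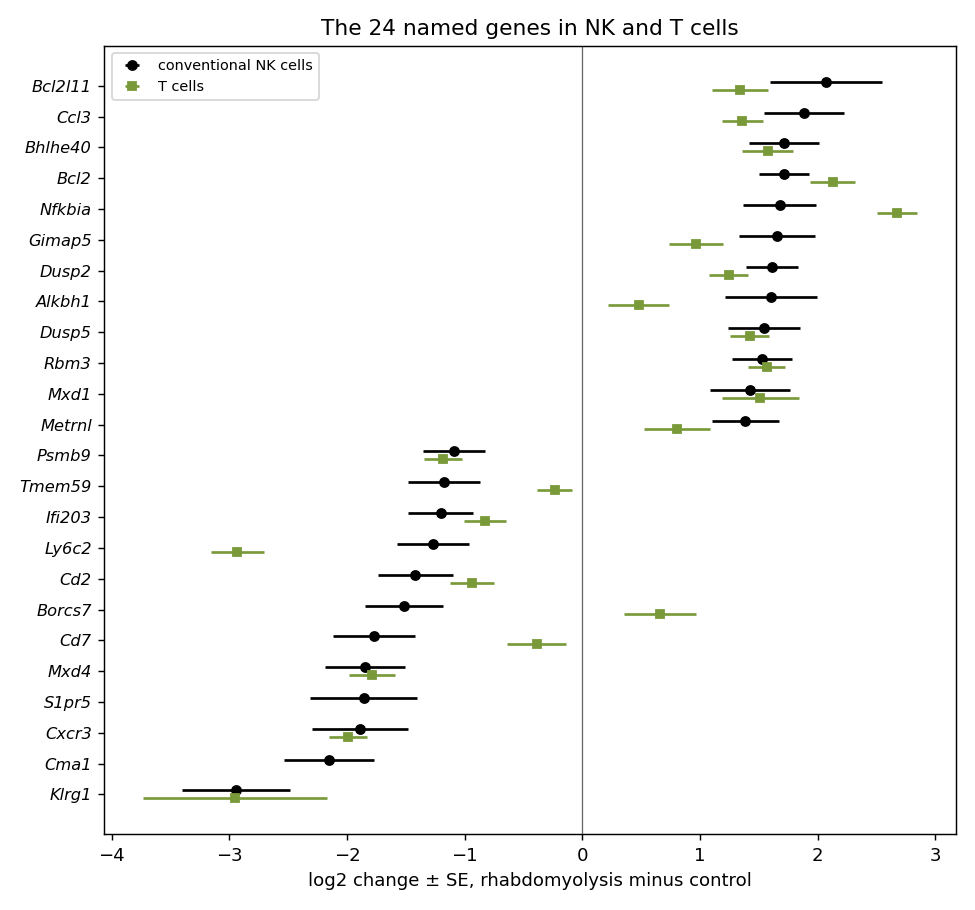
Log2 change ± SE between rhabdomyolysis and control of the 24 named genes in conventional NK cells (circles) and T cells (squares) of the same 6 libraries; S1pr5 and Cma1 have no T cell value. Of the 22 genes with both values, 21 lie on the same side of 0, with Borcs7 on opposite sides. The share over all genes tested in both cell types is not given beside this count.

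A direct test of the difference, with the library as a block, called 37 of 5020 genes (0.737%), 15 with a higher change in NK cells and 22 with a lower one. Xcl1, the gene of the ligand of the dendritic cell receptor Xcr1, changed by 0.06 ± 0.45 in NK cells and -3.02 ± 0.33 in T cells, a difference of 3.13 ± 0.29 (edgeR adjusted p = 6.67e-08). Ifng changed by 0.21 ± 0.34 against -2.35 ± 0.44, a difference of 2.32 ± 0.47 (edgeR adjusted p = 0.0098). Klf2 changed by 0.46 ± 0.19 against 1.76 ± 0.17, a difference of -1.30 ± 0.20. The costimulatory receptor gene Tnfrsf9 changed by -0.19 ± 0.40 against 3.37 ± 0.26. Of the 24 named genes, only Ly6c2 differed, with a smaller fall in NK cells (difference 1.52 ± 0.35, edgeR adjusted p = 0.032). Phagocyte genes rose in the T cell sums, with Itgam at 3.34 ± 0.40, Tyrobp at 1.61 ± 0.15 and Fcer1g at 0.97 ± 0.15 on the log2 scale; their part in the differences of these 3 genes was not tested. Calls numbered 23 and 21 without control libraries 1 and 2, and 19 and 16 without rhabdomyolysis libraries 1 and 3.

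Against the resident-type NK-gated cells, the same kind of test called 9 of 3082 genes (0.292%). It rests on the 4 resident-type cells of the rhabdomyolysis libraries, since library 2 had none, and 11 sums left 3 residual degrees of freedom. The change in Xcl1 was higher in conventional cells by 3.49 ± 0.74 and that in Ccl4 by 4.60 ± 0.91 on the log2 scale. The changes in Cma1, Gzmb, Klra4 and Klra8 were lower in conventional cells. Calls numbered 50 without rhabdomyolysis library 1 and 100 without rhabdomyolysis library 3, and 5 without control library 3.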

How the data were processed

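Per the file headers, the authors counted UMIs per gene and barcode with Cell Ranger 4, and the submitters' processing notes name the genome build mm10; the deposited matrices hold raw counts for 32285 genes and 6 antibody tags over all barcodes, unfiltered. From these counts, cells were filtered and gated as the report states, with the free RNA profile taken from barcodes of up to 100 UMIs. UMIs were summed over the gated cells of each library and tested with edgeR 4.0.16 (TMM, filterByExpr, quasi-likelihood test, Benjamini-Hochberg over all genes tested), in R 4.3.3; DESeq2 1.42.0 was an alternative. Free RNA was bounded by assigning all counts of 14 phagocyte genes in NK cells to it. Shares were compared with exact permutation tests over libraries. Intervals and floors cover counting error only. Differences between cell types were interaction terms with the library as a block.

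Named genes were up to 12 rises and 12 falls with the largest log2 change among called genes with an average log2 CPM of at least 5, groups that do not overlap and under 20% of counts from free RNA, outside the gate; members of the 22 gene lists were named as examples of their list, by smallest p, and other genes of a list, with values that did not pass, were named after their values were seen. The members and lists were chosen with earlier results of these data known. A simulation on these cells' means, with 2007 genes tested, recovered 50 of 50 rises and 35 of 50 falls of 2 on the log2 scale, 26 of 50 rises and 9 of 50 falls of 1, with 3 false calls among 123. It drew all genes with 1 common dispersion (0.0285) and no outlying library. Its false calls therefore do not give the error rate of the calls in the real libraries.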

Additional observations from a re-analysis of the deposited data

Results flagged for a closer look

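The genes below changed differently, by edgeR's interaction test with the library as a block, in conventional NK cells and in another cell type of the same libraries; values are the log2 change in conventional NK cells minus that in the other cells. Against T cells, higher values were found for Xcl1 (3.13), Egr1 (2.86), Ifng (2.32), Ly6c2 (1.52), Id2 (1.30), Hcst (1.16) and Nkg7 (1.05). Egr1, an immediate early gene, was under the count filter in NK cells alone, at 18.2, 14.1 and 0 CPM against 59.3, 215 and 54.7 CPM. Id2, the gene of a factor that innate lymphocytes need, had log2 changes of 0.21 in NK and -1.11 in T cells, and Nkg7, a granule membrane gene, -0.33 and -1.44.

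Lower values against T cells were found for Tnfrsf9 (-3.66), Itgam (-3.39), Nfil3 (-3.08), Tmem176a (-2.39), Tyrobp (-2.36), Ltb (-1.52), Zfp36l1 (-1.45), Ctla2a (-1.45), Klf2 (-1.30), Fos (-1.03) and Fcer1g (-1.02). Nfil3, the gene of a factor for NK development, changed by -0.01 in NK and 3.36 in T cells on the log2 scale, and Ctla2a by 0.38 and 1.86.

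Against the resident-type NK-gated cells, which numbered 4 in the rhabdomyolysis libraries, the values were 4.60 for Ccl4, 4.60 for S100a4, 3.49 for Xcl1, -2.88 for Gzmb, -4.00 for Klra8, -4.20 for Klra4, -5.26 for Stmn1 and -6.00 for Cma1.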

How the results depend on the processing

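Over the 61 genes followed, 1011 values under other settings kept their direction: 663 stayed on their side of the threshold, 348 no longer passed it and 0 reversed. Outside the fits that leave out a library, 495 stayed and 150 no longer passed. The 78 calls became 36 without cells with C1q or Lyz2 UMIs, 35 with DESeq2 (34 of them shared, adjusted p not given for 126 genes), and 21 to 164 with each library left out. Without the low-count filter 11990 genes gave 107 calls. With 6 more residency genes required at 0, a setting added after the data were seen, 69 genes were called, 49 of them shared. Leaving out cells with a Trac or Cd8b1 UMI gave 61 calls, 59 of them shared. In that setting 16 of the 61 genes followed no longer passed, among them Ly6c2, Mxd1 and Alkbh1 (edgeR adjusted p = 0.061, 0.077 and 0.052). Requiring at least 2 of Ncr1, Klrb1c, Klre1 and Eomes, without Gzma, gave 70 calls, 60 of them shared. With that gate 13 of the genes followed no longer passed, among them Ly6c2, Itgal, Itgb1 and Psmb9 (edgeR adjusted p = 0.0588, 0.0508, 0.0871 and 0.0506). The difference in the share of NK-gated cells was then 38.7 percentage points.

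The difference in the conventional NK share of all cells was -0.067 percentage points without the Malat1 minimum and ran from 0.0088 to 2.64 with each library left out; that in the share of NK-gated cells ran from 34.7 to 43.3. The 37 differences from T cells became 16 to 49 with each library left out. The 9 differences from resident-type cells became 17 with library totals and 5 to 100 with each library left out; the cause was not tested.

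Replicate numbers did not pair the samples, with correlations of the deviations of 0.016, -0.083 and -0.0098 between same-numbered libraries. With a replicate block 66 genes were called, 58 of them shared. Sign-flip exact permutation p-values for the shares of all cells and of NK-gated cells were 0.5 and 0.25. The value of 0.25 is the smallest that sign flips over 3 replicate numbers allow. Few cells limit these results: rhabdomyolysis libraries 1 and 2 gave 50611 and 51184 UMIs from NK cells.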
